A study of Mus musculus with 5 samples.

Results

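Splicing factor genes of 4 families were examined in CD11b+ forebrain cells of mouse pups: the SR proteins (Srsf), the hnRNP proteins (Hnrnp), the Sm and other snRNP proteins (Snrp) and the subunits of the SF3a and SF3b complexes (Sf3a, Sf3b). Members were chosen by symbol alone, as every listed gene named Srsf, Sf3a or Sf3b plus a number, or beginning with Hnrnp or Snrp, pseudogene names aside. The table held 49 such symbols. Hnrnpa1 was listed at 0 in every library and was left out, so that 48 of 23420 listed genes remained: 11 Srsf, 17 Hnrnp, 12 Snrp and 8 Sf3 genes.

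The series title names microglial STAT3, a transcription factor activated by cytokine receptors, and its effect on the young brain; microglia are the brain's resident macrophages. PolyA RNA was sequenced from CD11b+, propidium iodide-negative cells, which were enriched on Percoll and sorted from the forebrain at postnatal day 8. The knockout group held 3 libraries from Cx3cr1CreERT2/+ : Stat3 fl/fl pups. The control group held 2 libraries from Stat3 fl/fl littermates without Cre. Both groups received tamoxifen daily from postnatal day 1 to 3. Each library pooled 2 to 4 pups of both sexes. The controls carry floxed Stat3 but no Cre, so Cre itself, the inserted allele and the single disrupted copy of Cx3cr1 cannot be told apart from loss of Stat3. The Cx3cr1 promoter is active in microglia and also in other myeloid cells, and a CD11b sort does not separate these.

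Pre-mRNA splicing removes introns in the spliceosome, which is built from small nuclear RNAs and their proteins. A ring of Sm proteins forms the core of these particles, and SF3a and SF3b hold the U2 particle on the branch point of the intron. SR proteins mostly bind exonic enhancers and favour use of nearby splice sites, while hnRNP proteins coat nascent RNA and often act as silencers.

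The deposited values are log2 values centred on a separate reference for each gene, so a gene can be compared between libraries, but not with another gene. The depth per library is unknown. A gene without reads takes a fixed pattern of nearly equal values across the libraries, called the 0-read value below. The 9326 genes found above it in 2 or more libraries were tested with limma, and all adjusted p-values come from that fit. Of these genes, 10%, 10.2% and 9.96% were found at the 0-read value in knockout replicates 1, 2 and 3. In control replicates 1 and 2 the shares were higher, at 16.3% and 13.1%. The part of this imbalance in the results that follow was not tested. Stat3 checks the labels. Libraries labelled knockout gave 0.96, 0.07 and 0.24 and those labelled control 0.08 and 0.45, so that the groups overlapped (log2 difference 0.17, SE 0.43, adjusted p = 0.954). Stat3 therefore does not bear out the labels, and with 1 value per gene the loss of its floxed exons cannot be read from the table. Below, knockout means the library's label. Cx3cr1 stood at 3.36, 3.34 and 3.00 against 4.32 and 3.95, with every library labelled knockout below both controls (log2 difference -0.90, adjusted p = 0.640). All 10 microglia markers were tested, and their mean per library ran from 2.53 to 2.82 in knockout and from 2.73 to 3.02 in control libraries. Mean values of other myeloid markers were higher in each knockout library than in either control, although 0 of these genes passed the test. The 3 tested of 7 monocyte markers averaged 0.48 to 1.08 against -0.13 and -0.12, the 6 tested of 8 neutrophil markers 0.72 to 1.28 against 0.05 and 0.08, and the 6 tested of 7 border macrophage markers 0.77 to 1.17 against 0.42 and 0.52. By gene, 3 monocyte, 5 neutrophil and 4 border macrophage markers stood higher in the knockout libraries, and 0, 1 and 2 stood lower. Of the 10 microglia markers, 2 stood higher and 8 lower. Ly6c2, a defining monocyte marker, was listed at 0 throughout, and 0 of 7 lymphocyte markers could be tested. In such bulk samples, fewer cells of a type and less RNA per cell cannot be told apart, and the part of these markers in the results that follow was not tested.

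Across the splicing factors, no difference between knockout and control libraries passed the test. Of the 48 members, 43 lay above the 0-read value in enough libraries to be tested. By limma, 0 of these 43 passed an adjusted p of 0.05, as did 0 of all 9326 tested genes (0%). The smallest adjusted p was 0.615 among the members and 0.520 among all genes. At an unadjusted p under 0.05, 4 members stood higher in the knockout, against 5.52% of all tested genes, and 2 stood lower, against 2.06%. All 6 were hnRNP genes, and after median centring or quantile normalization the counts were 0 higher and 2 lower. The log2 difference was above 0 in 26 members and below 0 in 17, against 59.8% and 40.2% of all tested genes. Scaling turned this majority: 16 of 43 members were above 0 after median centring and 23 after quantile normalization. The median difference of the 43 members was 0.07 and that of all tested genes 0.13.

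In 8 members all 3 knockout libraries lay above both controls (18.6%, against 17.3% of all tested genes), and in 2 members all lay below them (4.65%, against 7.11%). Both shares are near the background. The 8 were Hnrnpa3, Hnrnph2, Hnrnph3, Hnrnpl, Snrpd1, Snrpd2, Snrpd3 and Srsf10, and the 2 were Hnrnpc and Srsf1. Snrpd2, Srsf10 and Srsf1 were separated by 0.0095, 0.012 and 0.017, respectively, on the log2 scale. The split between directions depended on how libraries were scaled. Centring each library on its median lowered the median difference of all genes from 0.13 to -0.12. It left 6 members above and 4 below both controls (all genes 8.36% and 13.5%), and quantile normalization left 6 and 3 (10.2% and 10.1%). Hnrnpa3, Hnrnph2, Hnrnph3, Hnrnpl, Snrpd1 and Snrpd3 lay above, and Hnrnpc and Srsf1 below, under all 3 scalings. In Hnrnph2, Snrpd1 and Snrpd3 both controls could sit at the 0-read value. If so, these genes passed the filter only through knockout libraries, and a difference above 0 was fixed by the filter.

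**Figure D1:**
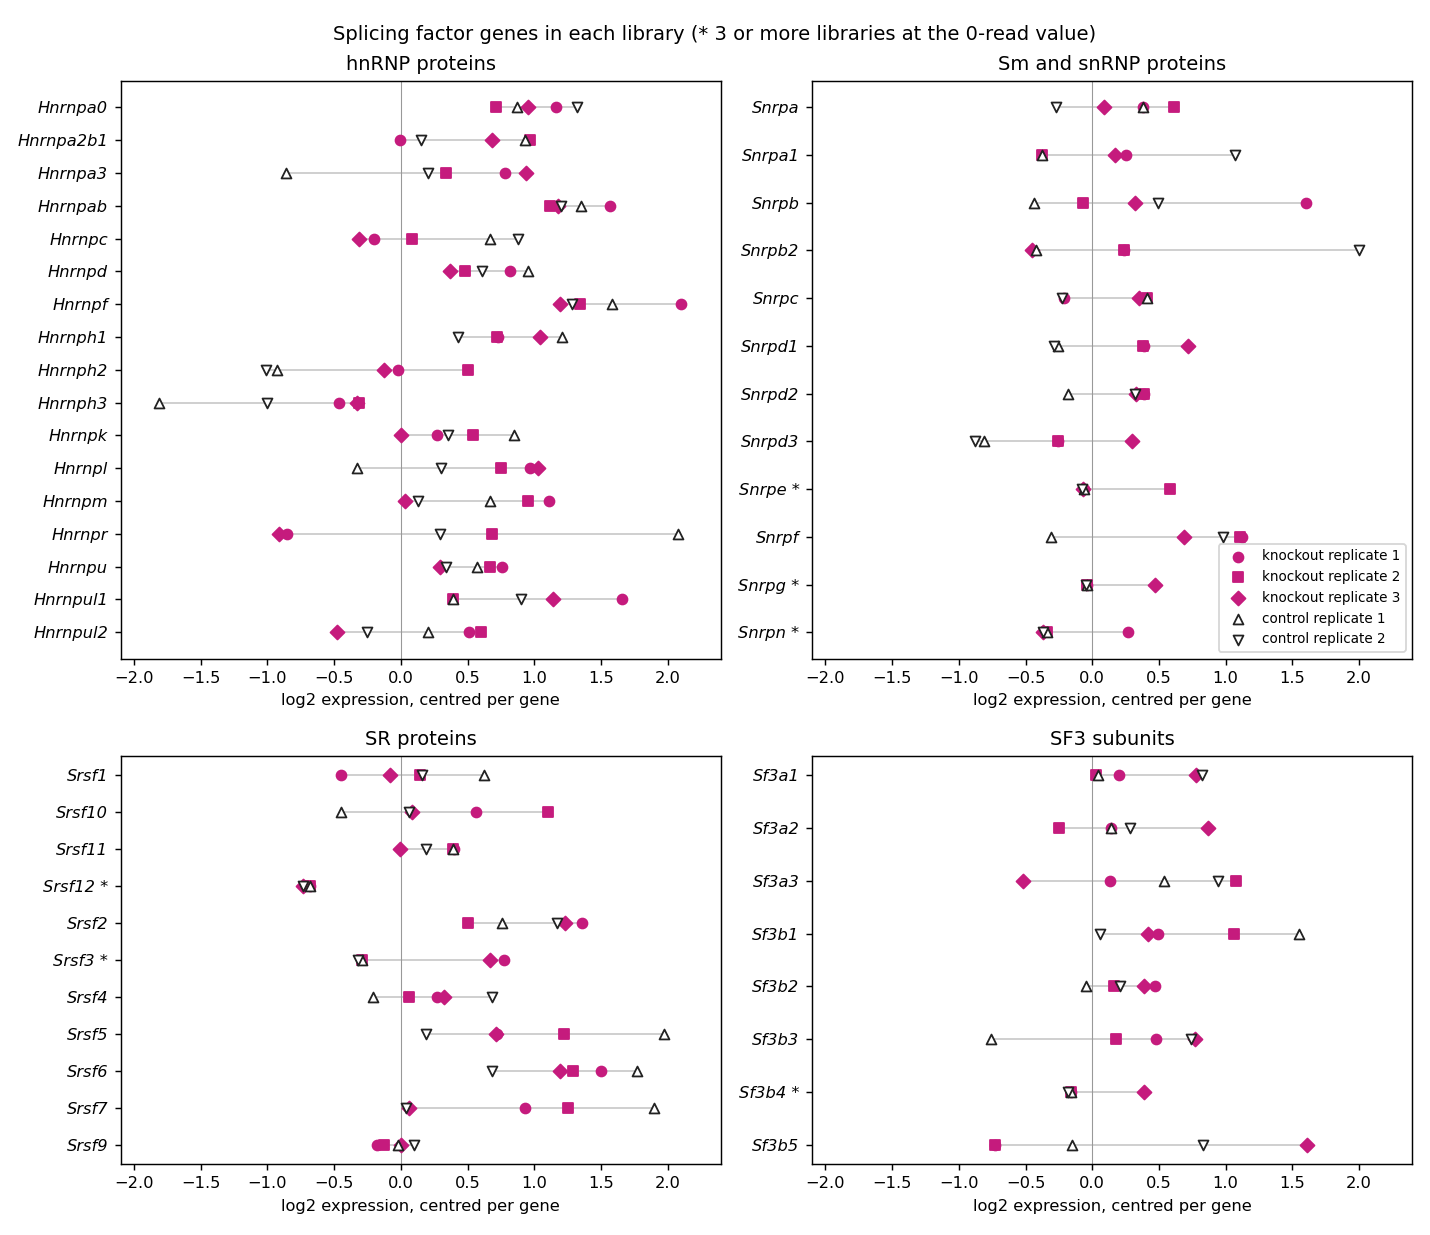
Log2 expression of the 48 splicing factor genes, centred per gene (x axis), in each of the 5 libraries, with a panel per family; filled symbols are knockout, open symbols control libraries. The groups are interleaved for most genes, and an asterisk marks the 6 genes at the 0-read value in 3 or more libraries.

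The plot of values by library shows, for each gene, how far the 2 controls lay from one another relative to the groups. The gap between the controls was larger than the difference between the groups in 31 of 43 members (72.1%, against 62.7% of all tested genes). The gap compares 2 single libraries and the group difference compares means of 3 and 2, so the gap varies more by design. The median gap was 0.51 over the members and 0.58 over all tested genes. The median SD of the 3 knockout libraries was 0.31 over the members, against 0.40 over all tested genes.

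The hnRNP genes held the largest differences, in both directions. All 17 were tested, 12 stood higher and 5 lower in the knockout libraries as deposited, but 6 of 17 stood higher after median centring (median -0.14), and 0 passed the test. Their median difference was 0.11 and the range ran from -1.54 to 1.09. With control replicate 2 left out the median was 0.01, where all tested genes had 0.31, and with control replicate 1 left out it was 0.26, where all had 0.11.

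Hnrnph2 encodes a paralog of hnRNP H on chromosome X (134601179 to 134607060, plus strand, GRCm38). Its values were -0.02, 0.50 and -0.13 in the knockout libraries and -0.93 and -1.01 in the controls. Every knockout library lay above both controls, and the controls, which lay close together, could both sit at the 0-read value. The log2 difference was 1.09 (SE 0.40, 95% interval 0.20 to 1.97, adjusted p = 0.615). Of its 40-base sequence words, 18.9% also occur in another annotated gene. Hnrnph3, another relative in the same subfamily that binds G-rich RNA, lies on chromosome 10 (63014664 to 63024217, minus strand). It stood at -0.46, -0.31 and -0.33 in knockout and at -1.81 and -1.0 in control libraries. The knockout libraries lay close together and above both controls, with a log2 difference of 1.04 (SE 0.41, 95% interval 0.12 to 1.96, adjusted p = 0.619). It was 0.63 when control replicate 1 was left out and 1.45 when control replicate 2 was. The best known member of the subfamily, Hnrnph1, did not follow this pattern. It stood at 0.73, 0.72 and 1.04 against 1.21 and 0.43, so that the knockout libraries lay between the controls (log2 difference 0.01, adjusted p = 0.995). Hnrnpf, the remaining relative, stood at 2.10, 1.34 and 1.19 against 1.58 and 1.28, also with overlap (log2 difference 0.11, adjusted p = 0.973).

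Hnrnpl, which binds CA-rich RNA and can repress or enhance exons, stood at 0.97, 0.75 and 1.03 in knockout and at -0.33 and 0.30 in control libraries. All knockout libraries lay above both controls, with a gap of 0.45 between the groups. The log2 difference was 0.93 (SE 0.40, 95% interval 0.04 to 1.82, adjusted p = 0.640). Hnrnpa3, a close relative of hnRNP A1 and A2/B1, stood at 0.78, 0.34 and 0.94 against -0.86 and 0.20. Control replicate 2 came within 0.14 of the lowest knockout library, and the difference of 1.02 (SE 0.45, adjusted p = 0.653) was 0.48 with control replicate 1 left out and 1.55 with control replicate 2 left out. Of the 40-base words of Hnrnpa3, 27.6% recur in other genes, among them 42 pseudogenes, so its reads could be split between copies. Hnrnpa2b1 itself stood at -0.01, 0.97 and 0.68 against 0.93 and 0.15, with full overlap (log2 difference 0.01, adjusted p = 0.993).

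Hnrnpc, whose product binds uridine tracts on nascent RNA, stood lower in the knockout libraries, at -0.20, 0.08 and -0.31 against 0.67 and 0.88. Every knockout library lay below both controls, by at least 0.59. The log2 difference was -0.92 (SE 0.38, 95% interval -1.78 to -0.06, adjusted p = 0.640) and ran from -1.03 to -0.81 when each library was left out in turn. Hnrnpr, which is also known for binding RNA in neurons, had the largest difference of all members, -1.54 (SE 0.64, 95% interval -2.98 to -0.11, adjusted p = 0.640). Its values were -0.85, 0.68 and -0.91 in knockout and 2.08 and 0.29 in control libraries. Knockout replicate 2 lay above control replicate 2, so the groups overlapped, and knockout replicates 1 and 3 could sit at the 0-read value. Leaving out control replicate 1 gave a difference of -0.65, and leaving out control replicate 2 gave -2.44. Hnrnpk, a poly(C)-binding protein, stood at 0.27, 0.54 and 0.00 against 0.85 and 0.35 (log2 difference -0.33, adjusted p = 0.843). The other members of the family, Hnrnpa0, Hnrnpab, Hnrnpd, Hnrnpm, Hnrnpu, Hnrnpul1 and Hnrnpul2, had differences between -0.22 and 0.42, and their groups overlapped.

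**Figure D2:**
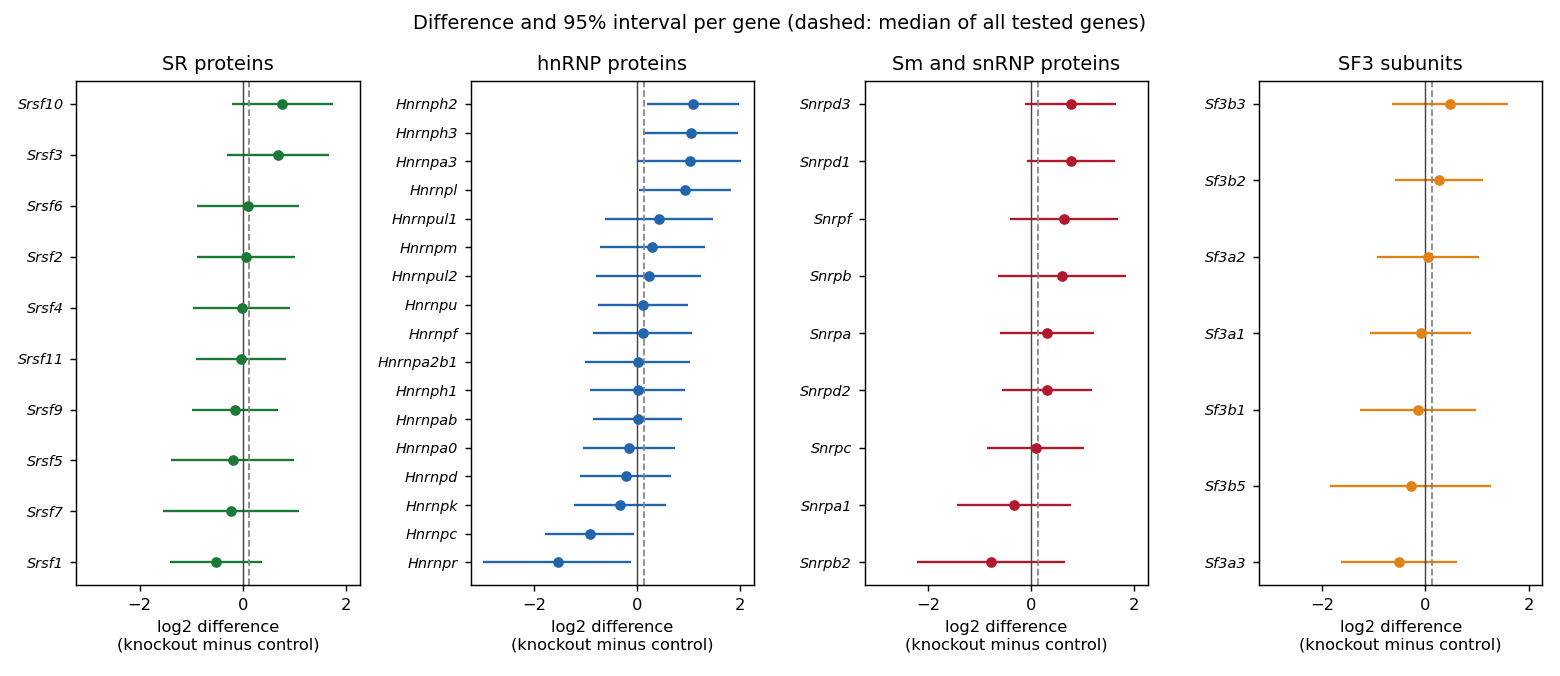
Log2 difference between knockout and control libraries (x axis, points) with its 95% limma interval (lines) for the 43 tested genes, a panel per family; the dashed line is the median of all tested genes, 0.13. The points run from -1.54 for Hnrnpr to 1.09 for Hnrnph2, and most intervals include 0.

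The plot of differences places the 4 families on 1 scale. Intervals that leave out 0 belong to 6 hnRNP genes, and in the other families every interval includes 0.

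Among the SR proteins, 10 of 11 genes were tested, of which 4 stood higher and 6 lower in the knockout libraries. Their median difference was -0.03, and 0.29 without control replicate 1. It was -0.28 after median centring, where the median of all genes was -0.12. Srsf10, a splicing regulator, had the largest difference of the family. It stood at 0.56, 1.10 and 0.08 in knockout and at -0.45 and 0.06 in control libraries. The knockout libraries lay above both controls by 0.012 only, with a log2 difference of 0.77 (SE 0.44, adjusted p = 0.744) that ran from 0.51 to 1.03 when each library was left out in turn. Srsf1, the founding SR protein (also called SF2/ASF), stood at -0.45, 0.14 and -0.08 against 0.62 and 0.16. Here the knockout libraries lay below both controls by 0.017 (log2 difference -0.52, SE 0.40, adjusted p = 0.779), and the difference was -0.29 when control replicate 1 was left out. Srsf3, the smallest SR protein, stood at the 0-read value in knockout replicate 2 and both controls, at -0.29, -0.29 and -0.32, and above it in knockout replicates 1 and 3, at 0.77 and 0.67. Its log2 difference was 0.69 (SE 0.44, adjusted p = 0.763). Srsf3 passed the filter only through knockout replicates 1 and 3, so a difference above 0 was fixed by the filter. It is among the 4 SR genes counted as higher.

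Of the SR genes, Srsf5, Srsf6 and Srsf7 differed most between the 2 controls. Srsf7, a shuttling SR protein, stood at 0.93, 1.25 and 0.06 in knockout libraries and at 1.90 and 0.04 in controls. Srsf5 stood at 0.72, 1.22 and 0.71 against 1.97 and 0.19. Srsf6 stood at 1.5, 1.29 and 1.19 against 1.77 and 0.68. In each of the 3 genes, control replicate 1 was the highest library and control replicate 2 the lowest, with the knockout libraries between. Their log2 differences were -0.22, -0.19 and 0.11, respectively (adjusted p = 0.956, 0.963 and 0.973), and without control replicate 1 they were 0.70, 0.70 and 0.65. Leaving out control replicate 2 instead gave -1.15, -1.08 and -0.44. Srsf9, by contrast, varied little, with -0.18, -0.13 and 0.00 against -0.02 and 0.10 (log2 difference -0.15, adjusted p = 0.954). Srsf2, Srsf4 and Srsf11 had differences between -0.04 and 0.07, with overlapping groups. Srsf12, a relative with low expression in most tissues, was at the 0-read value in all 5 libraries.

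**Figure D3:**
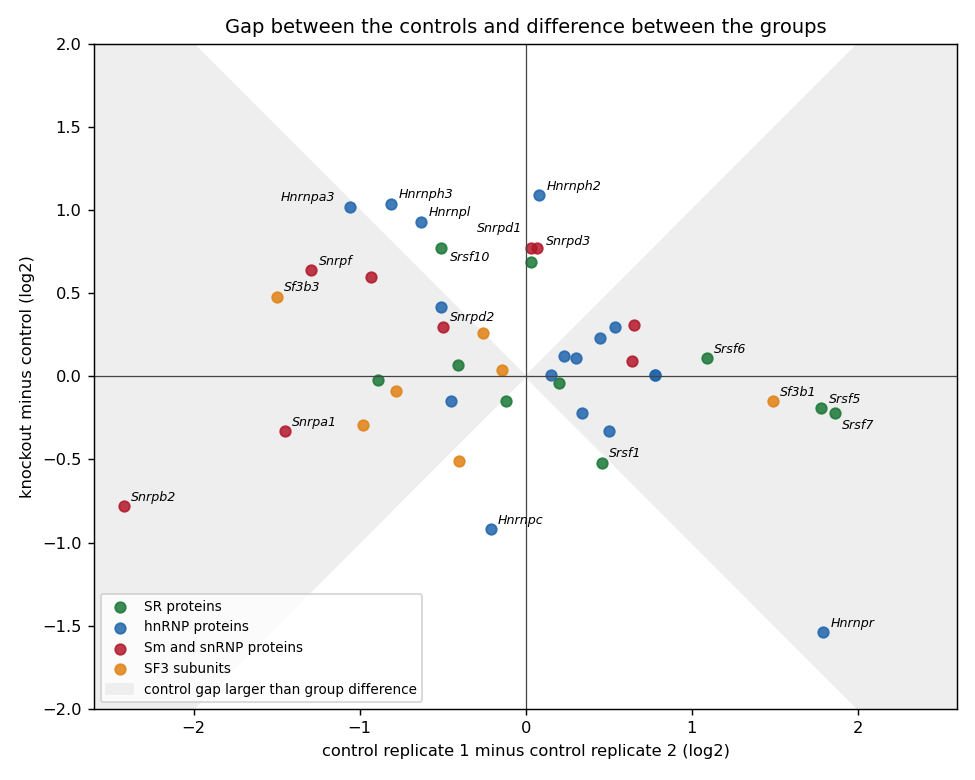
Difference between the groups (y axis, log2) against control replicate 1 minus control replicate 2 (x axis, log2) for the 43 tested genes, coloured by family; in the grey area the gap between the controls is the larger. Of the 43 genes, 31 lie in the grey area, and Srsf5, Srsf6, Srsf7, Sf3b1 and Hnrnpr lie beyond 1 on the right.

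As the plot of control gaps shows, the controls differed by more than 1 on the log2 scale in 10 members. Control replicate 1 was the higher in Srsf7, Hnrnpr, Srsf5, Sf3b1 and Srsf6 (11.6% of members, against 12.5% of all tested genes), by 1.09 to 1.86. Control replicate 2 was the higher in Snrpb2, Sf3b3, Snrpa1, Snrpf and Hnrnpa3 (11.6%, against 16%), by 1.07 to 2.41. The shares were near those of all genes. By family, 3 of the 10 SR genes were in the first group and 0 in the second, while 0 of the 9 tested Snrp genes were in the first and 3 in the second.

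The Sm proteins assemble as a ring of SmB, D1, D2, D3, E, F and G around each spliceosomal RNA. Of the 12 Snrp genes, which also include the U1 and U2 proteins, 9 were tested, and 7 stood higher and 2 lower in the knockout libraries. The median difference was 0.31, and 0 genes passed the test. Without control replicate 1 the median was 0.13 and without control replicate 2 it was 0.55. After median centring it was 0.05. Of these genes, 5 of 9 had near-equal values in knockout replicates 1 and 2, in the way equal small counts appear in this table (55.6%, against 16.9% of all tested genes), so their differences may rest on few reads.

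Snrpd1 stood at 0.39, 0.38 and 0.72 in knockout and at -0.26 and -0.29 in control libraries. Both controls were below every knockout library, and both could sit at the 0-read value (log2 difference 0.77, SE 0.38, 95% interval -0.08 to 1.62, adjusted p = 0.693). Snrpd3 followed the same order, at -0.26, -0.26 and 0.30 against -0.81 and -0.88, again with both controls possibly at the 0-read value (log2 difference 0.77, SE 0.40, 95% interval -0.12 to 1.65, adjusted p = 0.698). SmD1 and SmD3 are neighbours of SmD2 and SmB in the ring. Snrpd2 stood at 0.39, 0.39 and 0.33 against -0.18 and 0.32, so that only control replicate 1 stood apart (log2 difference 0.30, adjusted p = 0.856, and 0.05 without that library). Snrpb, which encodes SmB and SmB', stood at 1.6, -0.07 and 0.32 against -0.44 and 0.49, with overlap (log2 difference 0.60, adjusted p = 0.808), and leaving out single libraries gave 0.10 (knockout replicate 1) to 1.06 (control replicate 2). Snrpf stood at 1.12, 1.11 and 0.69 against -0.31 and 0.98, a log2 difference of 0.64 (adjusted p = 0.779) that was -0.01 with control replicate 1 left out and 1.28 with control replicate 2 left out. On chromosome 10 (93583029 to 93589706, minus strand), 85.4% of the exon bases of Snrpf overlap Ccdc38 on the opposite strand, and an unstranded library cannot tell the 2 genes apart.

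Snrpe, Snrpg and Snrpn were not tested, since each was at the 0-read value in 4 libraries. Snrpe stood above it in knockout replicate 2, at 0.58, Snrpg in knockout replicate 3, at 0.47, and Snrpn in knockout replicate 1, at 0.27. SmE and SmG are needed for every Sm ring, and their values are therefore not read as absence of the transcript. Snrpn encodes SmN, which replaces SmB mainly in neurons. The U2 proteins stood on the other side. Snrpb2, which encodes an RNA-binding protein of the U2 particle, stood at 0.24, 0.24 and -0.45 against -0.42 and 2.00 (log2 difference -0.78, adjusted p = 0.787). Snrpa1, which encodes the partner of that protein, stood at 0.25, -0.38 and 0.17 against -0.38 and 1.07 (log2 difference -0.33, adjusted p = 0.884). In both genes control replicate 2 was the highest library, and without it the differences were 0.43 and 0.39. The control then left, replicate 1, could sit at the 0-read value in both genes. So could knockout replicate 3 in Snrpb2 and knockout replicate 2 in Snrpa1. The U1 proteins Snrpa and Snrpc had differences of 0.31 and 0.09, with overlapping groups.

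Of the 8 SF3 genes, 7 were tested, with 3 higher and 4 lower in the knockout libraries, a median difference of -0.09 and 0 passing the test. In all 7 the groups overlapped. Leaving out control replicate 1 gave a median of -0.27, and leaving out control replicate 2 gave 0.20. After median centring it was -0.34, with 2 of 7 higher, and after quantile normalization -0.16. Sf3b1, the largest SF3b subunit and the target of recurrent mutations in blood cancers, stood at 0.49, 1.06 and 0.42 in knockout and at 1.55 and 0.06 in control libraries. The controls were the highest and the lowest library (log2 difference -0.15, adjusted p = 0.971), and leaving out control replicate 1 gave 0.59, leaving out control replicate 2 gave -0.89. Sf3b3 had the opposite order of controls, at 0.48, 0.18 and 0.77 against -0.76 and 0.74 (log2 difference 0.48, adjusted p = 0.811, and -0.27 without control replicate 1). Sf3b2, which contacts RNA near the branch point, stood at 0.47, 0.16 and 0.39 against -0.05 and 0.21 (log2 difference 0.26, adjusted p = 0.882). Of the small subunits, Sf3b5 was highest in knockout replicate 3, at 1.61, with -0.73 in both other knockout libraries and -0.15 and 0.83 in controls. Knockout replicates 1 and 2 could both sit at the 0-read value. The log2 difference of Sf3b5 was -0.29 (adjusted p = 0.945), and 0.10 without either of the low knockout libraries. Sf3b4 was at the 0-read value in every library but knockout replicate 3, where it stood at 0.39, and was not tested.

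In the SF3a complex, Sf3a3 stood at 0.13, 1.08 and -0.52 in knockout and at 0.54 and 0.94 in control libraries. Its knockout libraries spanned the controls, and the log2 difference was -0.51 (SE 0.51, adjusted p = 0.808). Leaving out knockout replicate 3 gave -0.13, and leaving out knockout replicate 2 gave -0.93. Sf3a2 stood at 0.14, -0.25 and 0.87 against 0.14 and 0.28, and Sf3a1 at 0.20, 0.03 and 0.78 against 0.04 and 0.82. Their log2 differences were 0.04 and -0.09 (adjusted p = 0.977 and 0.973).

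**Figure D4:**
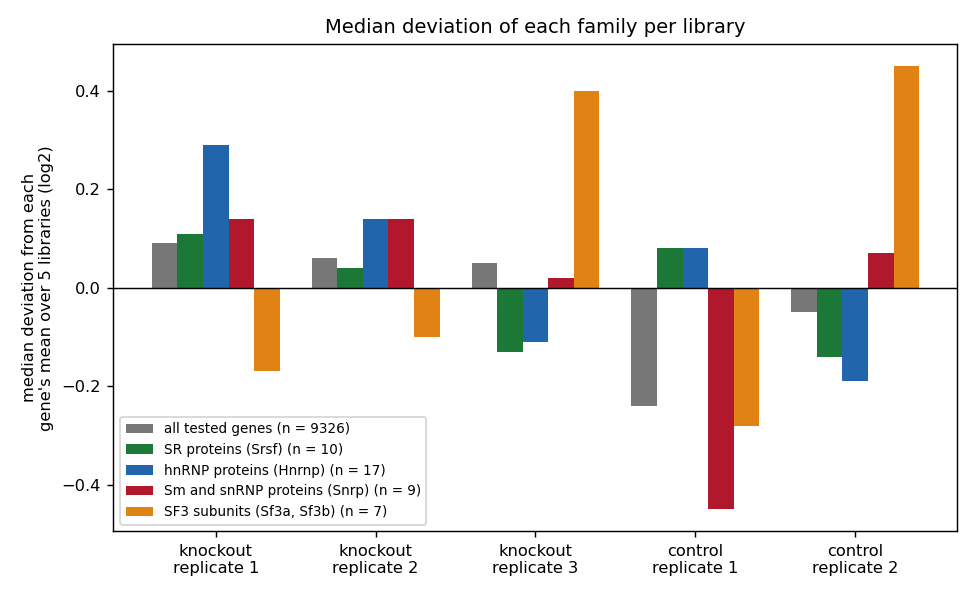
Median deviation from each gene's own mean over the 5 libraries (y axis, log2) for all tested genes (grey) and the tested genes of each family (colours), by library; n in the key is the number of genes. Bars for the Hnrnp genes run from 0.29 in knockout replicate 1 to -0.19 in control replicate 2, and those for the Sf3 genes are highest in control replicate 2 (0.45) and knockout replicate 3 (0.40).

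Libraries of 1 group differed from one another in these families, as the plot of family medians shows. The median hnRNP gene stood 0.29, 0.14 and -0.11 from its own mean in the 3 knockout libraries and 0.08 and -0.19 in the controls. Knockout replicate 3 was the lowest library in 8 of the 17 hnRNP genes (47.1%, against 19.1% of all tested genes). The median SF3 gene went the other way in that library, at 0.40, against -0.17 and -0.10 in the other 2 knockout libraries. In the controls it stood at -0.28 and 0.45. Control replicate 1 was the highest library in 4 of the 10 SR genes (40%, against 20.7% of all tested genes). For the Snrp genes, control replicate 1 stood lowest, with a median of -0.45 where all tested genes had -0.24.

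**Figure D5:**
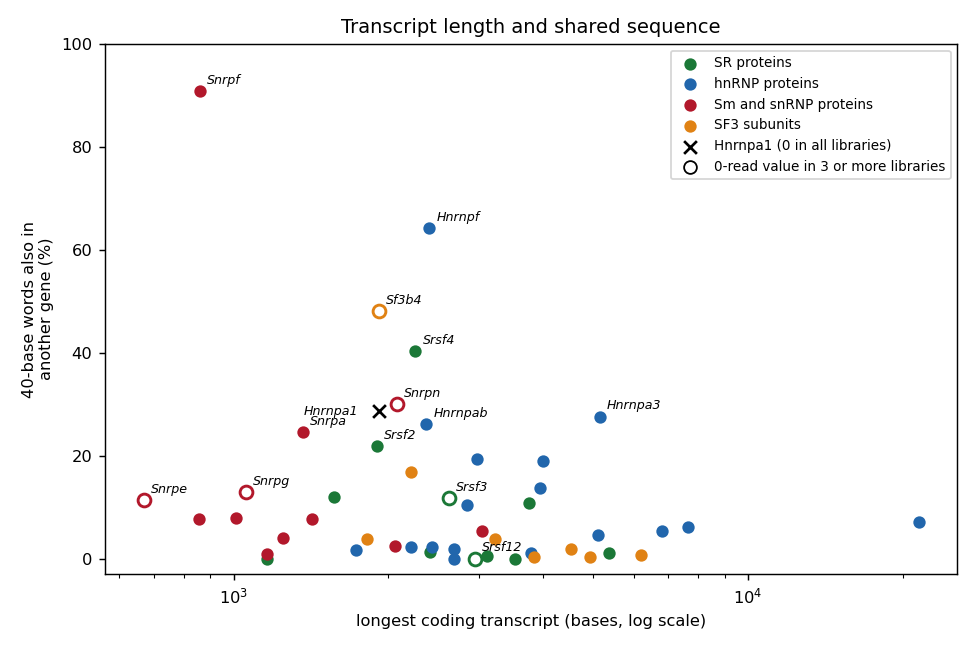
Length of the longest coding transcript (x axis, bases, log scale) against the share of 40-base words that also occur in another annotated gene (y axis, percent) for the 48 genes and Hnrnpa1 (cross); open circles mark genes at the 0-read value in 3 or more libraries. Snrpf lies at 90.9%, and the Snrp genes are short, with a median of 1204 bases.

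Reads were 40 bases long, and a read of that length that occurs in several genes cannot be placed by sequence alone. In the annotation (GENCODE vM21, GRCm38), 9 members shared over 20% of their 40-base words with another gene, as the plot of length against shared words shows. These were Snrpf (90.9%), Hnrnpf (64.2%), Sf3b4 (48.1%), Srsf4 (40.3%), Snrpn (30.0%), Hnrnpa3 (27.6%), Hnrnpab (26.1%), Snrpa (24.6%) and Srsf2 (21.8%). Words were matched on both strands, and those of genes overlapping at the same place were included. For Snrpf, Srsf4, Snrpn, Hnrnpab and Srsf2 the gene sharing most words overlaps their own exons. Reads from such an overlap can have a single position and still belong to either gene. The values of all 9 are uncertain to that extent, since the counting method is not given in the sources used here. Hnrnpa1, listed at 0 throughout, shared 28.7%, with 22 pseudogenes among its partners. Hnrnpa1 is widely expressed, and its 0 is not read as absence of the transcript. The median longest coding transcript was 1204 bases for the Snrp genes, 2618 for Srsf, 2970 for Hnrnp and 3532 for Sf3. The 6 genes at the 0-read value in 3 or more libraries, Srsf3, Srsf12, Snrpe, Snrpg, Snrpn and Sf3b4, had a median of 1996 bases.

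STAT proteins bind the palindrome TTCNNNGAA, so the 250 bases before the annotated starts were searched for it on both strands. RefSeq (GRCm38.p6) gave sequence for 43 of the 48 members. These are not the same 43 as the tested members, since they include the untested Snrpe, Snrpg, Snrpn and Srsf12. The motif was found in 3 of the 43 with sequence, Hnrnpa2b1, Hnrnph1 and the untested Snrpg (6.98%, against 6.92% of 7006 tested genes with sequence). The stricter form TTCCNGGAA was in 0 members (1.17% of tested genes). Of the 10 members whose groups did not overlap, 9 had sequence, and 0 of these held TTCNNNGAA. A match in these letters is a description and does not show binding. The upstream sequences of Hnrnpa2b1 (chr6:51469895-51470144, minus strand) and Hnrnph1 (chr11:50376740-50376989, plus strand) are shown because they hold the motif, marked in capitals, outside annotated exons. It begins 152 and 176 bases before the start, respectively.
Hnrnpa2b1: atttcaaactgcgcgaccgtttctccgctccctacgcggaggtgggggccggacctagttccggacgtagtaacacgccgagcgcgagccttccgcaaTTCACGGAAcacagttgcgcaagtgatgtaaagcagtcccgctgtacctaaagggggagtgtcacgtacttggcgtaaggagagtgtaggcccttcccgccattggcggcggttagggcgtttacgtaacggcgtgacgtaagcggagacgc
Hnrnph1: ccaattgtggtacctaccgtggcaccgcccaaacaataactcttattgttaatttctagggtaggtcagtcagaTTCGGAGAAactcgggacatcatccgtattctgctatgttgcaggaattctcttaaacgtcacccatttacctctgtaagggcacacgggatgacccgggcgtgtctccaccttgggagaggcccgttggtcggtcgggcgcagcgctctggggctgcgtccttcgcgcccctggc

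Both genes had a log2 difference of 0.01 between the groups, with overlap. A second motif, CGGAAG, which is bound by ETS factors, was found in 24 of the 43 members with sequence (55.8%, against 30.2% of tested genes with sequence). The untested Snrpe and Snrpg are among these members. Only 1 of the 9 members with sequence whose groups did not overlap held it.

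The splicing machinery beyond these families was read from 8 lists of other splicing genes. Of their 124 listed genes, 105 were tested, and 0 passed the threshold. In the knockout libraries 68 of the 105 stood higher and 37 lower, against 59.8% and 40.2% of all tested genes. Prpf3, U2af1l4, Rnps1, Gemin4 and Ptbp2, among the 68, were at the 0-read value in both controls. They passed the filter only through knockout libraries, so a difference above 0 was fixed by the filter. Prpf38b, Bcas2, Cwc22 and Tra2a could be further cases, with both controls possibly at that value. The same filter applied to all tested genes. In 18 of the 105, all knockout libraries lay above both controls and in 9 below, near the 17.3% and 7.11% of all tested genes. The median difference was 0.13, as in all tested genes. The PRPF factors and spliceosomal helicases had 19 of 25 higher, Prpf3 among them, and a median of 0.26. Their mean was 0.43, 0.31 and 0.14 in the knockout libraries and -0.33 and 0.22 in the controls, so that control replicate 1 stood apart and knockout replicate 3 lay below control replicate 2. For factors of the 3' splice site and branch point the count was 9 of 11 and the median 0.19, with means of 0.58, 0.50 and 0.06 against -0.07 and 0.34 in the same order. The Snrnp proteins had 3 of 7 higher (median -0.01), LSM proteins 3 of 5 (0.11), SR-related proteins and SR kinases 9 of 15 (0.06), other RNA-binding regulators 17 of 30 (0.18), the exon junction complex 2 of 4 (-0.09) and the Sm assembly machinery 6 of 8 (0.12).

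Snrnp200, the helicase that unwinds U4 from U6, stood at 0.59, 0.36 and -0.38 in knockout and at -1.5 and -0.61 in control libraries. All knockout libraries lay above both controls (log2 difference 1.24, SE 0.47, adjusted p = 0.615). Casc3, a core exon junction protein, stood at 0.03, 0.25 and -0.37 against 1.67 and 1.19, with every knockout library below both controls (log2 difference -1.45, SE 0.41, adjusted p = 0.605). Its partner Eif4a3 went the other way, at 1.11, 0.89 and 1.28 against 0.66 and 0.51 (log2 difference 0.51, adjusted p = 0.779). Qk, which regulates glial splicing, stood at 1.56, 1.40 and 0.76 against 2.52 and 1.02 (log2 difference -0.53, adjusted p = 0.808). At the splice sites, U2af2 had a difference of 0.41 (adjusted p = 0.824), Sf1 of -0.24 (0.899), Prpf8 of 0.11 (0.973) and Snrnp70 of -0.04 (0.978). Among SR kinases and cofactors, Srpk1 had -0.14 (0.973), Clk1 0.07 (0.973) and Srrm2 -0.12 (0.971). The regulators Ptbp1, Mbnl1 and Tardbp had -0.21, -0.02 and 0.18 (adjusted p = 0.918, 0.990 and 0.970). U2af1 and Tra2b were at the 0-read value in all 5 libraries and Smn1 in 4, and none of these was tested or is read as absent.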

How the data were processed

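Per the labels' protocols, polyA RNA was made into unstranded libraries and read at 40 bases. The submitters' processing notes name TopHat2 2.0.13, GRCm38/mm10 and DESeq2, without a role for the last. How reads were counted, and against which annotation, is not given in the sources used here. Each gene has 1 value per library in the deposited table, taken from its range (-4.12 to 7.69) and shape as log2 values centred per gene by the authors. Whether differences at low counts were shrunk was not tested, and the depth is unknown.

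Of 23420 genes, 27 names turned into dates by a spreadsheet and 6974 genes at 0 throughout were left out. A gene's 0-read value was recognised from the fixed pattern of genes without reads, in its lowest 3 to 5 libraries (tolerance 2% of the span for 3 libraries, 10% for 4 or 5). The 10% was set after the values had been seen. Genes above it in at least 2 libraries were tested: 9326. A lowest pair is harder to recognise and is called only possibly at it. Near-equal values of knockout replicates 1 and 2 are those where replicate 1 is above by at most 0.02.

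limma 3.58.1 (R 4.3.3; ~ group, eBayes) was fitted to the 5 libraries, two-sided, with Benjamini-Hochberg adjustment over all tested genes and a threshold of 0.05. SE and 95% intervals come from that fit. Replicates are separate pools of pups. The fit was tested on simulated data with a planted change larger than any difference among the tested genes. The 0-read rule was tested on simulated patterns without noise, and the calls of a lowest pair were not tested. Named members are the 3 with the smallest p per family and direction, those whose groups do not overlap, and those at the 0-read value; Stat3 and Cx3cr1 check the labels, and further splicing genes were named by list, of which 1 is not reported here. Hnrnph1, Hnrnpf, Hnrnpa2b1, Sf3a1, Snrpb and Srsf5 were added after their values were seen. The members and lists were chosen with earlier results of these data known, and families and lists are described, not tested. Alternatives were median centring, quantile normalization, no filter, a narrower tolerance, limma with trend and robust estimation, a replicate block and leaving out each library. Tables and plots were made in Python 3.11.15 (numpy 2.4.6, pandas 2.3.3, matplotlib 3.10.9).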

Additional observations from a re-analysis of the deposited data

How the results depend on the processing

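With 2 controls and unknown depth, the differences here have wide intervals, and a p that misses the threshold does not show that values did not differ. By limma, 0 members passed under each of the 11 alternatives (lowest adjusted p 0.328, without control replicate 2), and 1 to 6 had an unadjusted p under 0.05. Without the filter 1 gene of 16423 passed, Sord, which is no splicing factor; otherwise 0 genes passed. Median centring moved the median of all tested genes from 0.13 to -0.12, and the medians to -0.28 (Srsf), -0.14 (Hnrnp), 0.05 (Snrp), -0.34 (Sf3) and -0.18 (all members). Quantile normalization moved Srsf to -0.18. At an unadjusted p under 0.05, all genes split into 515 higher and 192 lower as deposited, 202 and 427 after centring, and 298 and 296 after quantile normalization; the members split 4 and 2, 0 and 2, and 0 and 2. Leaving out each library in turn gave medians from -0.11 to 0.29 for Srsf and from 0.13 to 0.55 for Snrp, the highest without control replicate 1 and control replicate 2, respectively. Replicate numbers 1 and 2 recur in both groups, but nothing says that they pair the pools. With a replicate block, which leaves knockout replicate 3 without a partner, medians were 0.03 (Srsf), 0.26 (Hnrnp), 0.44 (Snrp), -0.13 (Sf3) and 0.10 (all members), 0 genes passed, and 385 in place of 707 had an unadjusted p under 0.05 (1 in place of 6 members). Of the 25 tested members named by rule, 16 kept their direction throughout and 9 reversed. The naming rule partly fixes this count. The 10 members whose groups did not overlap cannot reverse when a library is left out. Without the filter, with the narrower tolerance and with trend and robust estimation, a gene's log2 difference stays the same by design. Scaling reversed Srsf6 (-0.15 after centring) and Sf3a2 (-0.21 after centring, -0.14 after quantile normalization), and the cause was not tested. The block reversed Srsf7 (0.12) and Sf3a2 (-0.26), with the same values as without knockout replicate 3. Leaving out each library in turn gave -0.44 to 0.65 for Srsf6, -1.15 to 0.70 for Srsf7, -0.01 to 1.28 for Snrpf, -1.99 to 0.43 for Snrpb2, -1.06 to 0.39 for Snrpa1, -0.27 to 1.23 for Sf3b3, -0.89 to 0.59 for Sf3b1, -1.07 to 0.20 for Sf3b5 (0.10 without knockout replicate 1 or 2) and -0.26 to 0.29 for Sf3a2 (-0.03 without control replicate 1). The lowest and highest of these came from leaving out 1 of the controls, except for both limits of Sf3a2 and the lowest of Sf3b5, where a knockout library was left out. Of the 6 members named after their values were seen, Snrpb kept its direction when each library was left out (0.10 to 1.06), and Srsf5 (-1.08 to 0.70), Hnrnpf (-0.17 to 0.29), Hnrnph1 and Hnrnpa2b1 (both -0.38 to 0.40) and Sf3a1 (-0.49 to 0.30) did not.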

Other observations

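Clk4, a kinase of SR proteins, stood at -0.81, -0.20 and 0.88 in knockout libraries and at 2.86 and 0.65 in controls, and was chosen after its values had been seen. Control replicate 1 was its highest library, as it was for 20.7% of all tested genes, and the groups overlapped. The log2 difference was -1.80 (SE 0.69, 95% interval -3.33 to -0.27), with an adjusted p of 0.615 by limma.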
